A study of Ericerus pela with 8 samples.

Results

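Vestigial, apterous and spalt are transcription regulators that lay down the insect wing, and 3 assembled transcript fragments (unigenes) carrying these names were followed through both sexes of the white wax scale insect Ericerus pela. They were picked by the name of their best protein match and are 3 of 147509 unigenes in the series. The vestigial unigene (Unigene156679_FOB, 1191 bases) matched a protein of the beetle Henosepilachna vigintioctopunctata and carried the gene ontology terms wing disc development and organ morphogenesis. The apterous unigene (Unigene121839_FOB, 293 bases) and the spalt-like unigene (Unigene150934_FOB, 622 bases) matched proteins of the beetle Tribolium castaneum. Neither carried a gene ontology process term. The e-value, the number of equally good matches expected by chance, was 2.7e-29 for vestigial and 1.3e-57 for spalt-like. The apterous match was weaker, at 3.1e-08. The labels and names were checked only as far as these matches go.

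The series compared the sexes of this insect by RNA sequencing across development. It held 8 libraries, 1 per group: first-instar females, second-instar females, females at an early, a middle and a later adult stage, first-instar males, second-instar males and adult males. RNA was total RNA of washed and homogenised insects. The labels give no strain, age in days, host plant or number of insects per library, and name no treatment. Adult females of this species are wingless and settled on the host, and adult males bear wings.

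In Drosophila, where most of this is known, apterous is a LIM-homeodomain protein that marks the upper (dorsal) face of the wing and switches on fringe, which sharpens Notch signalling along the wing margin. Vestigial has no DNA-binding domain of its own and works bound to the TEAD-family protein Scalloped. Together they specify wing tissue, and vestigial also acts in flight muscle. Spalt proteins are zinc-finger repressors set by the Dpp gradient that place wing veins, and they act in photoreceptors and other tissues too.

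Header totals ran from 1.5e+06 reads in the middle-stage adult females to 2.3e+06 in the first-instar males, a 1.58-fold range. Levels are counts scaled by the header total to CPM, and each comes with an exact 95% Poisson interval. All intervals cover counting error only, because no group had a second library and no difference between 2 libraries had a replicate check. Where a library held 0 reads, a floor of 3 reads was used, which is 1.63 CPM in the adult male. In whole insects, fewer cells of a type and less RNA per cell cannot be told apart.

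Vestigial was read most in the adult male. Its counts were 23 reads in first-instar females, 17 in second-instar females, 37 in first-instar males and 24 in second-instar males. In adults they were 19, 5 and 9 reads in early, middle and late females and 70 in the male. The adult male library stood above every other library, and the middle and late adult females were the lowest. As levels these are 38.0 CPM (29.6 to 48.0) in the adult male, 16.1 CPM (11.3 to 22.1) in first-instar males and 3.42 CPM (1.11 to 7.99) in middle-stage females. The remaining 5 libraries lay between those last values, from 4.83 CPM in late adult females to 11.0 CPM in second-instar males.

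When the libraries were put in order of vestigial level, only the step from the adult male to the next library, first-instar males, exceeded counting error, at 2.37-fold (1.57 to 3.63). No other neighbours in the order differed beyond their interval. Against the adult females the male level was 3.98-fold (2.37 to 6.99) the early, 11.1-fold (4.54 to 35.3) the middle and 7.88-fold (3.92 to 17.9) the late stage. These 3 ratios share the male library.

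To call a difference, 1 CPM was added to both levels and their log2 ratio had to reach 2 in either direction, with 20 reads or more in 1 of the libraries. Under this 4-fold rule vestigial was called higher in the male against middle and late females, where 16.4% and 16.9% of all tested unigenes were also called higher. Against early females its log2 ratio was 1.89, short of the rule, which 9.31% of unigenes passed in that direction. Vestigial was therefore not among the 9.34% of 26437 unigenes called higher against all 3 female stages. Over all tested unigenes the median log2 ratio of these comparisons was -0.52, -0.37 and -0.62. Scaling by the trimmed mean of M-values (TMM), a normalization that allows for a few very abundant transcripts, raised those medians by 0.33, 0.35 and 0.17. With TMM the early comparison reached 2.23 for vestigial and passed the rule, and with median-of-ratios scaling it reached 2.38.

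From the second instar to the adult, the male level of vestigial was 3.46-fold (2.15 to 5.75) higher and not called, where 10.1% of unigenes were called higher. With TMM its log2 ratio was 2.08 and passed. In females the level at the middle adult stage was 0.358 (0.105 to 0.991) of the early stage, on 5 and 19 reads, too few for the rule. Between the sexes at the first instar the ratio was 1.54 (0.889 to 2.71), and at the second instar 1.24 (0.639 to 2.46), so no sex difference was detectable in larvae at this depth. The share of the vestigial unigene's length covered by reads, a deposited value, ran from 15.45% in middle-stage females to 80.3% in adult males. No other unigene carried the name.

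**Figure D1:**
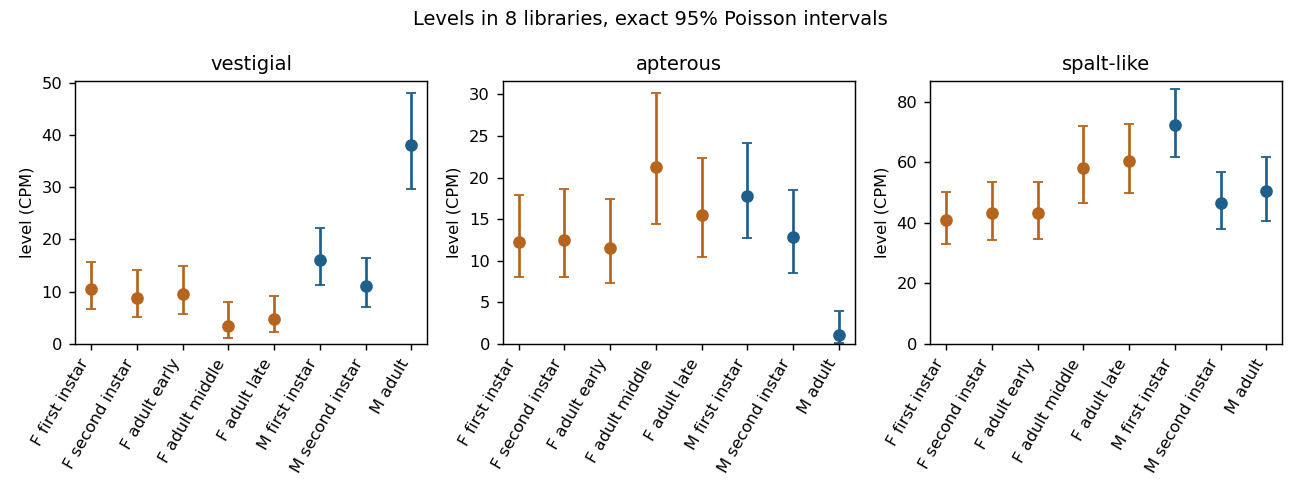
Level in CPM (vertical axis) of the vestigial, apterous and spalt-like unigenes in each of the 8 libraries (horizontal axis; F, female in brown; M, male in blue), with exact 95% Poisson intervals as bars. The adult male point is the highest for vestigial (38.0 CPM), the lowest for apterous (1.09 CPM) and in the middle of the range for spalt-like (50.5 CPM).

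Apterous showed the opposite extreme in the same library. Its counts were 27 reads in first-instar females, 24 in second-instar females, 41 in first-instar males and 28 in second-instar males. In adults they were 23, 31 and 29 reads in early, middle and late females and 2 in the male. The 7 other libraries lay within 1.83-fold of each other, from 11.6 to 21.2 CPM, and the adult male lay far below them at 1.09 CPM (0.132 to 3.92).

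In the order of levels the only step beyond counting error was the last, from early adult females down to the adult male. The female level was 10.7-fold (2.63 to 93.2) that of the male at the early stage, 19.5-fold (4.97 to 168) at the middle stage and 14.3-fold (3.62 to 124) at the late stage. The wide intervals come from the 2 male reads. Apterous was called lower in the male against all 3 stages, as were 7.8% of the tested unigenes. It was also called lower in adult than in second-instar males, where the ratio of second instar to adult was 11.8 (2.98 to 102) and 17.4% of unigenes were called lower. In larvae the male to female ratio was 1.45 (0.871 to 2.45) at the first and 1.03 (0.573 to 1.85) at the second instar. Middle-stage females read 1.83-fold (1.04 to 3.29) the level of early-stage females.

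Another 4 unigenes carried an apterous name, and they may be pieces of the same transcript or of a paralog, which the files do not settle. The first 3 below were at their lowest level in the adult male. In that library Unigene148846_FOB held 3 reads, against 16 to 28 in the female adults, and Unigene133110_FOB held 3 reads, against 13 to 17. Unigene137153_FOB held 1 read in the adult male, against 3 to 7 in the female adults, and Unigene93953_FOB held 0 against 0 to 3, too few to compare. Unigene148846_FOB was called lower against early females, as were 16.8% of unigenes. Against middle and late females its log2 ratios were -2.19 and -2.09, but with 16 and 19 female reads it could not be tested. The other named apterous unigenes had fewer than 20 reads in every adult library and could not be tested in any adult sex comparison. Their protein matches were stronger, with e-values of 5.6e-26 to 4.2e-21, against 3.1e-08 for the member and 3.9e-06 for Unigene148846_FOB.

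Summed over the 5 apterous unigenes, the adult male held 9 reads and the adult females 75, 64 and 73. The summed female level was 7.72-fold (3.86 to 17.5), 8.96-fold (4.44 to 20.5) and 8.01-fold (4.0 to 18.2) that of the male. The sum narrows the intervals of the single unigene and keeps their direction. In larvae the sum was higher in males at the first instar, 148 against 79 reads, a ratio of 1.79 (1.35 to 2.38). At the second instar it was 82 against 93 reads, a ratio of 0.775 (0.569 to 1.05), so the male excess was detectable at the first instar only.

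**Figure D2:**
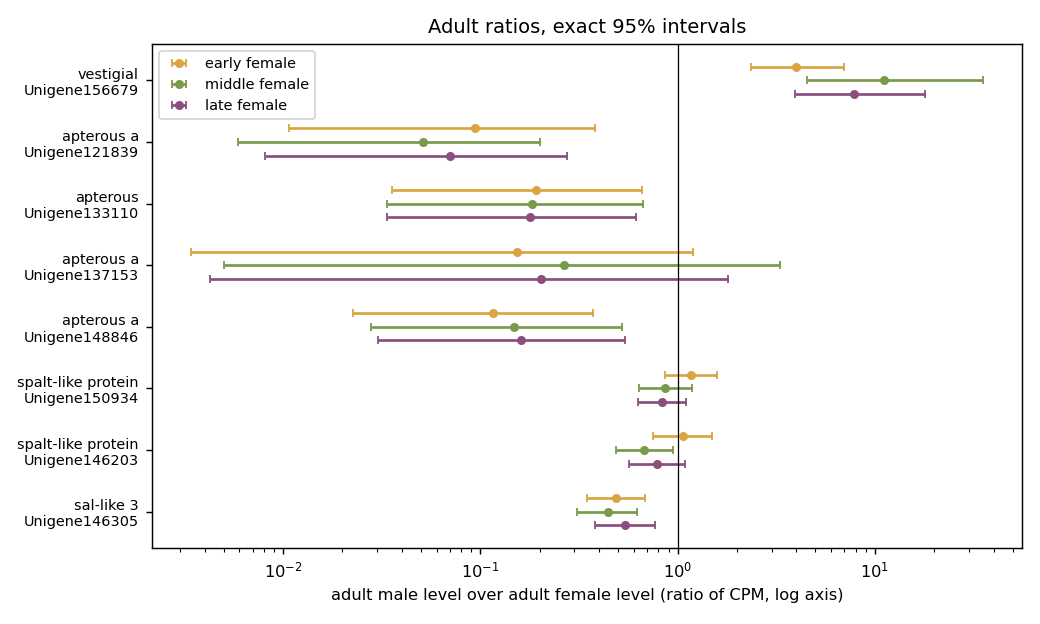
Ratio of the adult male level to the level in early, middle and late adult females (horizontal log axis) for the unigenes named vestigial, apterous or spalt with at least 50 reads in all, with exact 95% intervals; the vertical line marks equal levels. Vestigial lies right of the line at 3.98 to 11.1, the 4 apterous unigenes lie left of it, and the spalt-like unigenes lie near it except sal-like 3, at 0.443 to 0.542.

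Spalt-like was the steadiest of the 3. Its counts were 90 reads in first-instar females, 83 in second-instar females, 167 in first-instar males and 102 in second-instar males. In adults they were 86, 85 and 113 reads in early, middle and late females and 93 in the male. The highest level, 72.5 CPM in first-instar males, was 1.77 times the lowest, 40.9 CPM in first-instar females, and the adult male at 50.5 CPM (40.8 to 61.9) lay inside the range of the adult females. No step between neighbours in the order exceeded counting error.

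Spalt-like was called in no comparison. In adults its male to female ratio was 1.17 (0.861 to 1.58) for the early, 0.868 (0.64 to 1.18) for the middle and 0.834 (0.627 to 1.11) for the late stage. Its 2 differences beyond counting error in larvae were the first-instar sex ratio of 1.77 (1.36 to 2.32) and the step from first to second instar in males, at 0.645 (0.499 to 0.83). Over all unigenes the share called in either direction was 3.56% and 6.3% between the sexes at the first and second instar, and 26.1%, 35.3% and 37.6% between the adult male and early, middle and late females. It was 8.21% and 27.5% in the successive male steps and 2.59%, 1.34%, 10.4% and 8.36% in the successive female steps. The rule was passed upward by 0.766% of unigenes in that first-instar sex comparison and downward by 4.26% in that step.

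Of the 3 other spalt unigenes, the second spalt-like one (Unigene146203_FOB) had a first-instar sex ratio of 1.63 (1.18 to 2.27). Its adult ratios were 1.06 (0.754 to 1.5), 0.677 (0.485 to 0.943) and 0.788 (0.568 to 1.09). It did not share the drop from first to second instar in males, with a ratio of 1.02 (0.763 to 1.35). In females that step was 1.52-fold (1.08 to 2.16) upward, against 1.06-fold for the first unigene. Its highest library was the middle-stage females, at 56.1 CPM. Sal-like 3 (Unigene146305_FOB), named for a frog protein, did not share the first-instar difference, at 0.912 (0.692 to 1.2). It was lower in the adult male than in every adult female library, with ratios of 0.489 (0.347 to 0.682), 0.443 (0.31 to 0.626) and 0.542 (0.381 to 0.765), none of them called. Spalt major (Unigene34395_FOB) held 0 to 9 reads in each library, too few for a ratio worth reading. Summed over the 4 spalt unigenes, the level was lowest in the adult male, at 118 CPM (103 to 135). The male to female ratio of the sum was 0.843 (0.703 to 1.01), 0.658 (0.547 to 0.79) and 0.731 (0.611 to 0.873) for early, middle and late females. Whether these unigenes come from the same gene was not settled.

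Per length, the deposited RPKM put vestigial at 0.0397 to 0.222 of the apterous level in the other 7 libraries and at 8.61 times that level in the adult male. The order of these 2 unigenes was thus reversed in that library alone, where the apterous value rests on 2 reads. The order depended on which apterous unigene was read. Unigene137153_FOB had an RPKM of 7.08 in first-instar females and 7.14 in second-instar males, below vestigial at 8.78 and 9.235. Spalt-like stayed above the vestigial and apterous members in all 8 libraries, at 1.29 to 21.9 times apterous and 2.54 to 32.6 times vestigial. Across the 8 libraries, which share the adult male as the extreme point, the Pearson correlation of log2 levels was -0.82 between vestigial and apterous and -0.47 over the 7 libraries without it. Between apterous and spalt-like it was 0.24 over 8 libraries and 0.82 over 7, and between vestigial and spalt-like -0.09 and -0.11.

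A test for a sex difference shared by the stages used all 8 libraries with stage as a covariate. With 4 residual degrees of freedom, it measures error by the variation of the sex difference from stage to stage and by the variation among the adult females, not by replicates. The edgeR quasi-likelihood test with Benjamini-Hochberg adjustment called 0 of 45635 unigenes (0.0% in either direction), with 2167 at an unadjusted p under 0.05, and DESeq2 called 28 higher and 43 lower in males. No member was called by either tool. In the edgeR quasi-likelihood test vestigial had a log2 male to female ratio of 1.78 (adjusted p = 0.87). Apterous had a log2 ratio of -0.74 (adjusted p = 0.877, edgeR) and spalt-like 0.44 (adjusted p = 0.87, edgeR). Without the adult male library the log2 values were 0.44 for vestigial, 0.26 for apterous, a change of sign, and 0.44 for spalt-like.

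The partners of these genes varied in depth. The unigene named scalloped (Unigene97517_FOB), after the DNA-binding partner of Vestigial, was read thinly. It held 8 reads in the adult male and 3, 9 and 8 in early, middle and late females. Other unigenes carried names of the same TEAD family, and whether they are pieces of scalloped was not settled. Transcriptional enhancer factor TEF-1 (Unigene144415_FOB) held 54 reads in the adult male and 69, 62 and 55 in the adult females. Its levels were 29.3 CPM against 29.5 to 42.5 CPM. TEA domain family member 1 (Unigene46196_FOB) held 23 reads in the adult male and 21, 20 and 13 in the adult females. The unigene named scalloped had too few reads to be tested in adults. TEF-1 and TEA domain family member 1 were tested and not called.

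Fringe (Unigene142636_FOB), the Notch-modifying enzyme that apterous switches on in the fly wing, held 68 reads in the adult male and 44, 16 and 17 in the females. That is 36.9 CPM in the male, the highest of the 8 libraries, against 9.12 to 22.1 CPM, and it was not called. Beadex, a LIM-only protein that blocks apterous activity in the fly (Unigene140034_FOB), held 6 reads in the adult male and 6, 1 and 41 in the females, and was called lower against late females only, as were 20.7% of unigenes. LIM homeobox transcription factor 1 beta 2 (Unigene119109_FOB), a relative of apterous, held 11 reads in the adult male against 64, 137 and 159 in the females and 248 in second-instar males. It was the 1 of 2 tested unigenes of the apterous partner list called lower against all 3 female stages, beside 7.8% of all unigenes.

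Among 37 unigenes of wing and appendage selector genes, 10 could be tested against all 3 female stages, and apterous was the only one called, lower in the male. The count of 0 higher and 1 lower stands beside 9.34% and 7.8% over all tested unigenes. The median log2 ratio of the selectors tested was -0.18, -0.2 and 0.81 against early, middle and late females, each above the median over all unigenes. Against middle females 3 of 11 were called higher, beside 16.4% of all unigenes: vestigial, the leg and eye gene dachshund (Unigene155862_FOB) and the homeodomain cofactor extradenticle (Unigene134768_FOB). Dachshund held 35 reads in the adult male, 36 in early females, 0 in middle females and 1 in late females. Extradenticle held 64 reads in the adult male, 74 in early females and 11 in middle females. Its level was 34.8 CPM in the male and 37.2 CPM in early females. Another extradenticle unigene (Unigene151554_FOB) held 70 reads in the male and 91, 27 and 30 in early, middle and late females, and was not called. Against early females 3 of 14 were called lower, beside 16.8% of all unigenes, the apterous unigenes Unigene121839_FOB and Unigene148846_FOB and an iroquois-class gene (Unigene156430_FOB), which held 8 reads in the male and 71 in early females. The apterous unigenes among them may be pieces of the same transcript.

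The adult male was the highest library for few selectors. In a count added after the values were seen, 27 selector unigenes had at least 50 reads over the 8 libraries. Only vestigial and a unigene of Ultrabithorax (Unigene153602_FOB, 10.9 CPM), which sets hindwing identity, were highest in the adult male, and 6 were lowest there. Other Ultrabithorax unigenes were highest elsewhere. Unigene29771_FOB, with 76 reads in all, was highest in second-instar females, and Unigene136172_FOB, with 11 reads in all, in early adult females. Of 53416 unigenes with as many reads, 16.4% were highest and 39.3% lowest in that library. First-instar males were the highest library for 12 of the 27 selector unigenes, against 14.9% of all unigenes. These are counts of unigenes, not of separate genes. Most of those lowest in the adult male carried the apterous name and may be pieces of the same transcript. Those highest in first-instar males included repeated names too: apterous, dachshund, extradenticle and optomotor-blind. The median first-instar log2 sex ratio of the 21 selectors tested was 0.47 beside 0.11 over all unigenes, and none was called.

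For the signalling pathways that act on these genes in the wing, the shares over all unigenes against all 3 female stages were again 9.34% higher and 7.8% lower. None was called among 5 tested unigenes of the Hippo pathway, 13 of the Wnt pathway, 11 of the Dpp pathway, 4 of the Hedgehog pathway, 4 of the EGF receptor pathway and 17 wing blade and expansion genes. In the Notch pathway 1 of 18 was called lower, an enhancer of split unigene (Unigene150107_FOB), a Notch target, with 3 reads in the male and 32, 20 and 41 in the females. In the planar polarity list 1 of 4 was called higher, prickle (Unigene126949_FOB), which orients wing hairs, with 63 reads in the male and 13, 4 and 5 in the females.

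Among the Dpp pathway genes, short gastrulation, a BMP inhibitor (Unigene157492_FOB), read 138 CPM in the adult male and 68.0 to 85.8 CPM in the adult females. The signal transducer mothers against dpp (Unigene153994_FOB) read 59.8 CPM against 28.4 to 37.0 CPM. Medea (Unigene156073_FOB), of the same pathway, read 39.7 CPM in the male, inside the adult female range of 33.2 to 42.9 CPM. Patched, the Hedgehog receptor (Unigene157383_FOB), read 35.9 CPM in the adult male and 13.9 to 42.8 CPM in the females, and was highest in first-instar males at 128 CPM. None of these unigenes was called between the adults. A LATS1 kinase unigene of the Hippo pathway (Unigene32112_FOB), which restrains growth, held 175 reads in first-instar males and 4 in first-instar females. It was called higher there, as were 0.766% of unigenes. At the second instar it held 82 against 4 reads, also called higher, as were 2.64% of unigenes. In adults it held 39 reads in the male against 7, 17 and 22, called higher against early females only, as were 9.31%. Another LATS1 unigene (Unigene151789_FOB) held 42 reads in the adult male and 4 in middle females. Among the adults this second unigene was called higher against middle females only, as were 16.4% of unigenes.

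**Figure D3:**
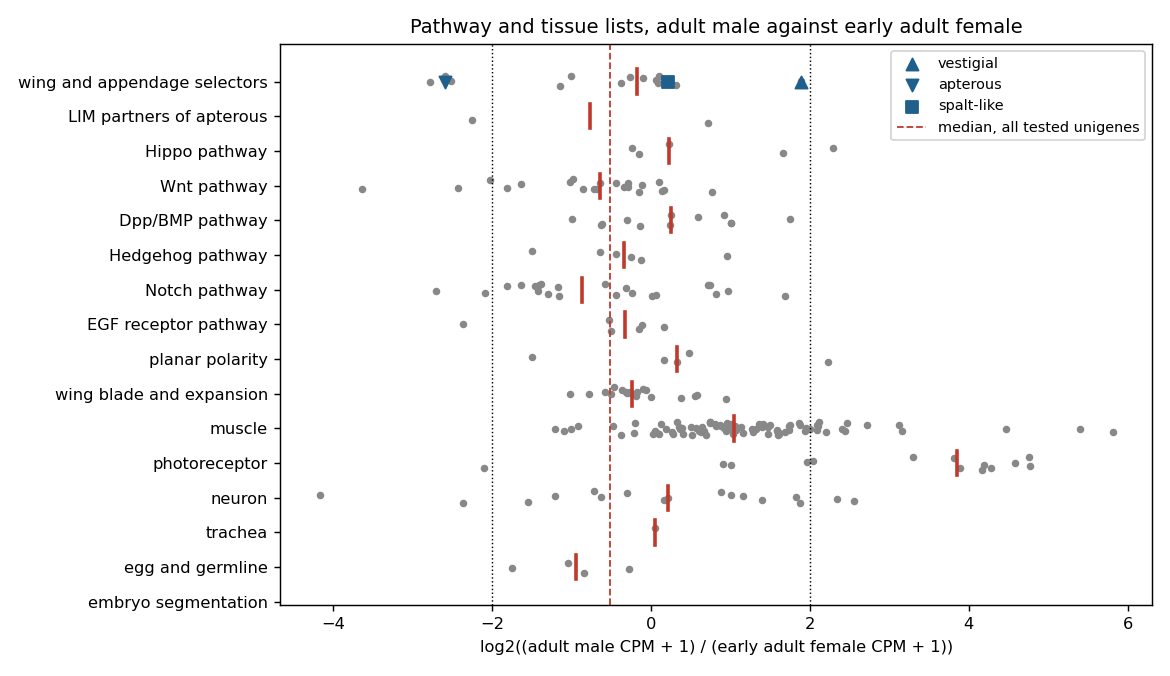
Log2 ratio of adult male to early adult female level, each with 1 CPM added (horizontal axis), for every tested unigene (grey points) of 10 pathway and 6 tissue lists (rows), with the list median (red bar), the median of all tested unigenes (dashed, -0.52) and the 4-fold rule (dotted, at 2 in either direction). Vestigial (1.89) and apterous (-2.59) lie far to either side among the selectors, while the photoreceptor list has its median at 3.85. Most photoreceptor unigenes shown passed the read minimum only through the adult male.

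In the adult male library, where vestigial and apterous were extreme, the sums of the muscle and photoreceptor marker lists were highest. The egg and germline sum was lowest there. The neuron, trachea and embryo segmentation sums of the adult male lay inside the range of the other libraries. The 100 muscle unigenes summed to 9474 CPM in the adult male and 1592 to 4369 CPM in the adult females, and 5 of them held 0 reads in the male against 6 to 9 in the females. Against all 3 stages 13 of 88 tested were called higher and none lower, beside 9.34% and 7.8% of all unigenes. Titin novex-3 (Unigene156016_FOB) read 597 CPM in the male and 196, 42.5 and 37.0 CPM in early, middle and late females. A myosin light chain (Unigene50719_FOB) held 76 reads in the adult male and 0 in every other library, at least 20.1-fold above the floor of 3 reads per library in middle-stage females, the highest floor of the adult females.

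The 24 photoreceptor unigenes summed to 862 CPM in the male and 82.2 to 114 CPM in the females. Against all 3 stages 10 of 13 tested were called higher, beside 9.34% of all unigenes. In comparisons without the adult male only 2 to 5 of the list could be tested. Most of the 13 thus passed the read minimum only through the male library, which made a higher call likely in advance. A long-wavelength opsin (Unigene145366_FOB), a light-sensing protein of the eye, held 133 reads in the male and 6, 0 and 0 in the females. Chaoptin (Unigene36764_FOB), of the same list, went the other way against early females. It held 12 reads in the male and 62, 3 and 7 in early, middle and late females. Against early females chaoptin was called lower, as were 16.8% of unigenes. In the adult male 2 unigenes of this list were at 0 reads, and in the adult female libraries 0 to 8 of them were.

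The 34 neuron unigenes summed to 728 CPM against 538 to 687 CPM, with 2 of 16 tested called higher against all 3 stages, beside 9.34% of all unigenes. In the male 2 of them were at 0 reads, against 2 to 15 in the female libraries. The 19 egg and germline unigenes summed to 79.8 CPM against 179.7 to 1814 CPM, with 10 at 0 in the male against 0 to 9. Against late females 17 of 17 tested were called lower, beside 20.7% of all unigenes. Only 4 and 5 could be tested against early and middle females, so most of the 17 passed the read minimum only through late females. For those, being tested and being called lower were nearly the same event, and the share is no fair comparison. Against all 3 stages 4 could be tested and none was called. Of 3 trachea unigenes 1 was tested and not called, with a sum of 20.6 CPM against 14.4 to 20.6 CPM and none at 0 in any library. None of 7 embryo segmentation unigenes could be tested against all 3 stages, and 1 was tested against late females and called lower. Their sum was 8.15 CPM against 4.79 to 28.4 CPM, and 3 held 0 reads in the male against 2 to 4. From first- to second-instar males vestigial went from 16.1 to 11.0 CPM, a ratio of 0.685 (0.392 to 1.18), within counting error. In that step the muscle sum rose from 2270 to 4554 CPM and the egg and germline sum from 192 to 354 CPM. The neuron sum fell from 871 to 555 CPM and the photoreceptor sum from 126 to 105 CPM. The trachea sum fell from 33.4 to 9.17 CPM and the embryo segmentation sum from 25.2 to 20.2 CPM. The part of these tissues in the adult values of vestigial and apterous was not tested.

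**Figure D4:**
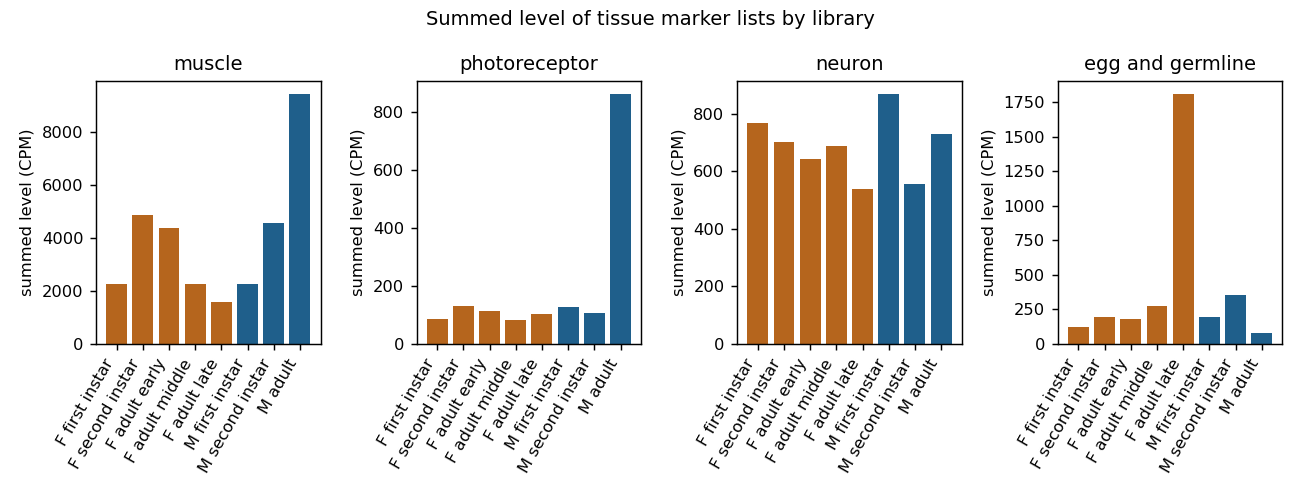
Summed level in CPM (vertical axis) of the muscle, photoreceptor, neuron and egg and germline marker lists in each of the 8 libraries (horizontal axis; F, female in brown; M, male in blue). Muscle and photoreceptor sums peak in the adult male at 9474 and 862 CPM, and the egg and germline sum peaks in late adult females at 1814 CPM.

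The named genes with a profile most like each member were found by Pearson correlation of log2 levels, with 1 CPM added, over the 8 libraries among 14302 candidates. For vestigial these were calcium-dependent secretion activator (r = 0.996), which primes secretory vesicles, CTD small phosphatase-like (0.981), WD repeat-containing protein 47 (0.973), beta-alanyl conjugating enzyme (0.972), known as ebony in flies, and SelR (0.971), a methionine sulfoxide reductase. Over the 7 libraries without the adult male these correlations were 0.93 to 0.99. Calcium-dependent secretion activator read 62.5 CPM in the adult male and 4.11 CPM in middle-stage females, its highest and lowest libraries, as they were for vestigial.

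For apterous the closest were a Torsin-like protein, a SEC22-like vesicle trafficking protein, an estrogen receptor binding protein, fatty acid synthase and a SWI/SNF chromatin subunit, at r of 0.994 to 0.996 over 8 libraries and 0.929 to 0.956 over 7. Fatty acid synthase (Unigene151550_FOB) read 0 CPM in the adult male and 209 CPM in middle-stage females. For spalt-like they were the regulatory subunit of phosphatidylinositol 3-kinase (0.968), farnesyltransferase beta (0.944), a protease and reverse transcriptase of a mobile element (0.91), a TBC1 domain protein (0.9) and a sodium/solute symporter (0.899), at 0.91 to 0.972 without the adult male. With 8 points and so many candidates, these values describe the profiles only.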

How the data were processed

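RNA was measured by sequencing in 8 libraries, 1 per group as given by the sample titles. Per the file headers, the authors' deposited tables give for each unigene the count of uniquely assigned reads, a whole number, with the library total, an RPKM value, and the percent of its length covered. Unigenes not listed in a table were taken as 0. RPKM recomputed from count, length and total differed from the deposited RPKM by at most 2.3e-09 in relative terms. The sources used here do not give the aligner, assembler or strand setting. No sequences are shown, and whether reads of near-identical copies were split was not recorded.

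Counts were divided by the header total (CPM). Ratios carry exact conditional binomial intervals and levels exact Poisson intervals, both at 95%. The rule for calls was a 4-fold difference with 1 CPM added and no fewer than 20 reads in 1 of the libraries. Among adults all 3 female libraries had to pass in 1 direction. Against 0 reads a floor of 3 reads per library was used. The test across stages used edgeR 4.0.16 (quasi-likelihood, TMM on the header totals, filterByExpr, stage as covariate, adjusted p under 0.05), with DESeq2 1.42.0 as an alternative. Other alternatives were TMM and median-of-ratios scaling, 0.5 or 5 CPM added, at least 10 or 50 reads, header totals alone, no low-count filter and each library left out. Both procedures were run on simulated data. The simulated pairs held counting error only, and the simulated counts for edgeR held less variation than was fitted here and no differences between stages. These runs therefore do not show how the procedures behave on single libraries such as these. Software also included R 4.3.3, Python 3.11.15 and scipy 1.17.1.

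The 16 lists are words searched in the match descriptions. The members and lists were chosen with earlier results of these data known, and false matches were removed from the lists by description after an output that also showed counts. Named genes were the members, the other unigenes of the same names, up to 4 of the highest mean level and up to 4 called in adults per list, and the 5 closest profiles per member. The remaining genes named, scalloped, dachshund, extradenticle, iroquois, Ultrabithorax and the second LATS1 unigene, were named after their values were seen.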

Additional observations from a re-analysis of the deposited data

Results flagged for a closer look

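Apterous had male to female ratios above 1 in larvae and below 1 in adults. Its log2 male to female ratio, with 1 CPM added, was 0.50 at the first instar and 0.033 at the second, and -2.59, -3.41 and -2.99 against early, middle and late adult females. The difference between stages was not tested, because each group held 1 library. Both larval ratios lay within counting error, and the 3 adult ratios share the male library with its 2 reads.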

How the results depend on the processing

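Under the alternatives, 173 of 183 values of the 3 members between libraries were counted as unchanged, called or uncalled as before. Uncalled values under another scaling also had to stay within counting error, while called values had only to keep their call. Values that a higher read minimum made untestable are not among the 183. A changed read minimum leaves a value itself as it was, so agreement there was nearly certain in advance. Vestigial passed the rule against early females (1.89) at 2.23 with TMM and 2.38 with median-of-ratios scaling, and from second-instar to adult males at 2.08 and 2.28. With 5 CPM added apterous was no longer called against early females (-1.44), late females (-1.76) or second-instar males (-1.55). With at least 50 reads apterous could not be tested in any comparison. Median-of-ratios scaling moved spalt-like to 0.72 and 0.24 against early and middle females and to 0.70 from second-instar to adult males, none called.

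Counts of all unigenes called in a comparison depended on the added level and minimum reads. With 5 CPM added, 280 were called between first instars, 889 between second instars, 2232 between adults, 1070 and 4546 in the male steps, and 207, 187, 1487 and 1211 in the female steps, in order of age. With at least 50 reads these were 460, 982, 2513, 1357, 5373, 351, 232, 1428 and 1052. With at least 10 reads they were 2234 and 3287 between first and second instars, and 1442, 753, 5197 and 3815 in the female steps. The share of adult calls that were higher in the male was 54.5%, 67.1% with TMM and 72.2% with median-of-ratios scaling; from second-instar to adult males it was 36.7%, 49.1% and 56.4%.

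Across stages edgeR called 0 unigenes, 646 without the low-count filter (509 higher, 137 lower) and 71 with DESeq2. Leaving out 1 library at a time, edgeR called 0 each time, with 833 to 3604 at an unadjusted p under 0.05. The members' log2 ratios then ran from 0.44 to 2.27 for vestigial, from -1.52 to 0.26 for apterous and from 0.30 to 0.57 for spalt-like. The value of 0.26 came without the adult male. No paired analysis was possible because each group held replicate number 1 only. The cause of these changes was not tested.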
